A study of Mus musculus with 12 samples.

Results

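The survival of motor neuron (SMN) complex was followed here through the transcripts of 9 of its subunits: Ddx20 (also called Gemin3), Smn1, Gemin2, Gemin4, Gemin5, Gemin6, Gemin7, Gemin8 and Strap. The genes were chosen by name as subunits of the complex, and each of the 9 was found once in both deposited tables of 56953 genes. The complex loads a ring of Sm proteins onto small nuclear RNAs in the cytoplasm, which turns them into the ribonucleoprotein particles of the spliceosome. Smn1, a gene whose human counterpart is lost in spinal muscular atrophy, encodes the central SMN protein. Ddx20 encodes the DEAD-box RNA helicase of the complex, and Gemin5 encodes the subunit that recognises the RNA.

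The samples were whole mouse spinal cords. Mice carrying loxP-flanked Ddx20 (Ddx20flox/flox) were crossed with Plp-CreER mice, in which a tamoxifen-activated Cre is driven from the promoter of the myelin gene Plp and acts mainly in oligodendrocyte-lineage cells, and these conditional knockouts (cKO) were compared with control mice. The 12 libraries fall into 4 groups of 3 animals, since each genotype was sampled at 4 weeks and again at 4.5 weeks after tamoxifen. All groups were timed from tamoxifen, and whether the controls carried floxed alleles or the CreER transgene, and the strain, age and sex of the animals, are not given in the sources used here.

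Libraries held 33104560 to 47677267 estimated counts, and 19278 genes with enough counts were tested. Each of the 9 subunit genes passed that filter, from Gemin6 with 102 to 169 counts per library to Strap with 3945 to 6323. None of the listed cell type markers was at 0 counts throughout any group. Summed mature oligodendrocyte markers (8 genes, in CPM, the count scaled to a common library size) held 32200 to 34760 CPM in controls and 13760 to 18750 CPM in libraries labelled cKO at 4 weeks, and 29400 to 29860 against 10200 to 11140 CPM at 4.5 weeks. Summed microglial markers (6 genes) moved the other way, from 210.0 to 218.1 CPM up to 410.5 to 568.8 CPM at 4 weeks and from 207.0 to 212.6 up to 1808 to 2029 CPM at 4.5 weeks. On the axis of greatest variance (58.5% of it) cKO library 1 of 4 weeks lay at 3.29, between the 6 controls, none above -64.5, and the other libraries labelled cKO, none below 39.2. Progenitor markers (4 genes) held 109.4 to 118 CPM in controls and 164 to 225 CPM in cKO at 4 weeks, and 120.3 to 122 against 651.2 to 737.1 CPM at 4.5 weeks, and markers of dividing cells (4 genes) held 8.18 to 15.6 against 25.1 to 78.4 and 7.48 to 9.75 against 50.5 to 108.1 CPM. Astrocyte markers (5 genes) were lower in sum, at 2453 to 2940 CPM in controls against 986 to 1757 CPM in cKO at 4 weeks, and 3436 to 3679 against 1845 to 1992 CPM at 4.5 weeks. Of these 5 markers 4 were called lower and 1 higher at each time. The part of these cell types in the changes of the SMN complex and Sm genes was not tested. Markers of tissue outside the cord varied as well. Those of sensory ganglion and Schwann cells (5 genes) summed to 65.86 to 149.3 CPM in controls and 31.38 to 73.55 CPM in cKO at 4 weeks, and to 18.1 to 21.05 CPM in cKO at 4.5 weeks. Although the sum was lower at 4 weeks, 2 of the 5 were called higher in cKO and 0 lower. At 4.5 weeks 0 were called higher and 2 lower. Skeletal muscle markers (3 genes) reached 16.61 CPM in cKO library 3 of 4 weeks. Controls 1 and 2 of 4.5 weeks stood apart within their group. Ganglion and Schwann markers summed to 280.9 CPM in library 1, against 7.39 and 7.72 CPM in libraries 2 and 3. Muscle markers summed to 78.35 CPM in library 2, against 1.91 and 7.12 CPM in libraries 1 and 3. Without these 2 libraries together Smn1 and Strap kept their calls at 4.5 weeks, and Ddx20 kept its estimate (0.33) but not its call (adjusted p = 0.0989). In whole cord, fewer cells of a type and less RNA per cell cannot be told apart. Xist and Y-linked transcripts showed that the controls at 4 weeks were male, cKO libraries 1 and 2 of 4 weeks female, cKO library 3 of 4 weeks male, and all 6 libraries of 4.5 weeks female.

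Transcript of the targeted gene was not lower in libraries labelled cKO. At 4 weeks Ddx20 held 11.01, 9.78 and 11.08 CPM in control libraries 1 to 3 and 10.2, 11.1 and 9.90 CPM in cKO libraries 1 to 3. The groups overlapped, with a log2 fold change (cKO minus control) of -0.03 ± 0.10 (SE; 95% interval -0.25 to 0.19) and an adjusted p of 0.841. Each adjusted p here is from the quasi-likelihood test of edgeR after Benjamini-Hochberg adjustment. An exact 2-sided permutation test of CPM gave p = 0.9, where the smallest p that 3 against 3 libraries can give is 0.1. A count summed over a gene does not show whether an exon was removed, and cells outside the reach of Plp-CreER keep their intact transcript.

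At 4.5 weeks Ddx20 was higher in libraries labelled cKO. Controls held 9.16, 10.6 and 9.71 CPM and libraries labelled cKO 12.4, 11.1 and 13.3 CPM, so that each cKO library lay above each control, by the narrowest margin in cKO library 2. The log2 fold change was 0.33 ± 0.10 (95% interval 0.10 to 0.55, adjusted p = 0.0134), a rise of 25.3%, and the exact permutation test gave its smallest possible p, 0.1. Of all tested genes, 69.7% changed by more than Ddx20 did at that time. Leaving out control library 1 (adjusted p = 0.0596) or cKO library 3 (0.0627) of 4.5 weeks ended the call. Over all alternatives the adjusted p ranged from 0.00772 to 1, the upper end from the test against a 1.5-fold change. That test asks whether a change exceeds 1.5-fold, a different question, and it enters every such range below. The change in Ddx20 did not differ between the times at the threshold used (difference 0.36 ± 0.14, 95% interval 0.04 to 0.67, adjusted p = 0.0675).

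**Figure D1:**
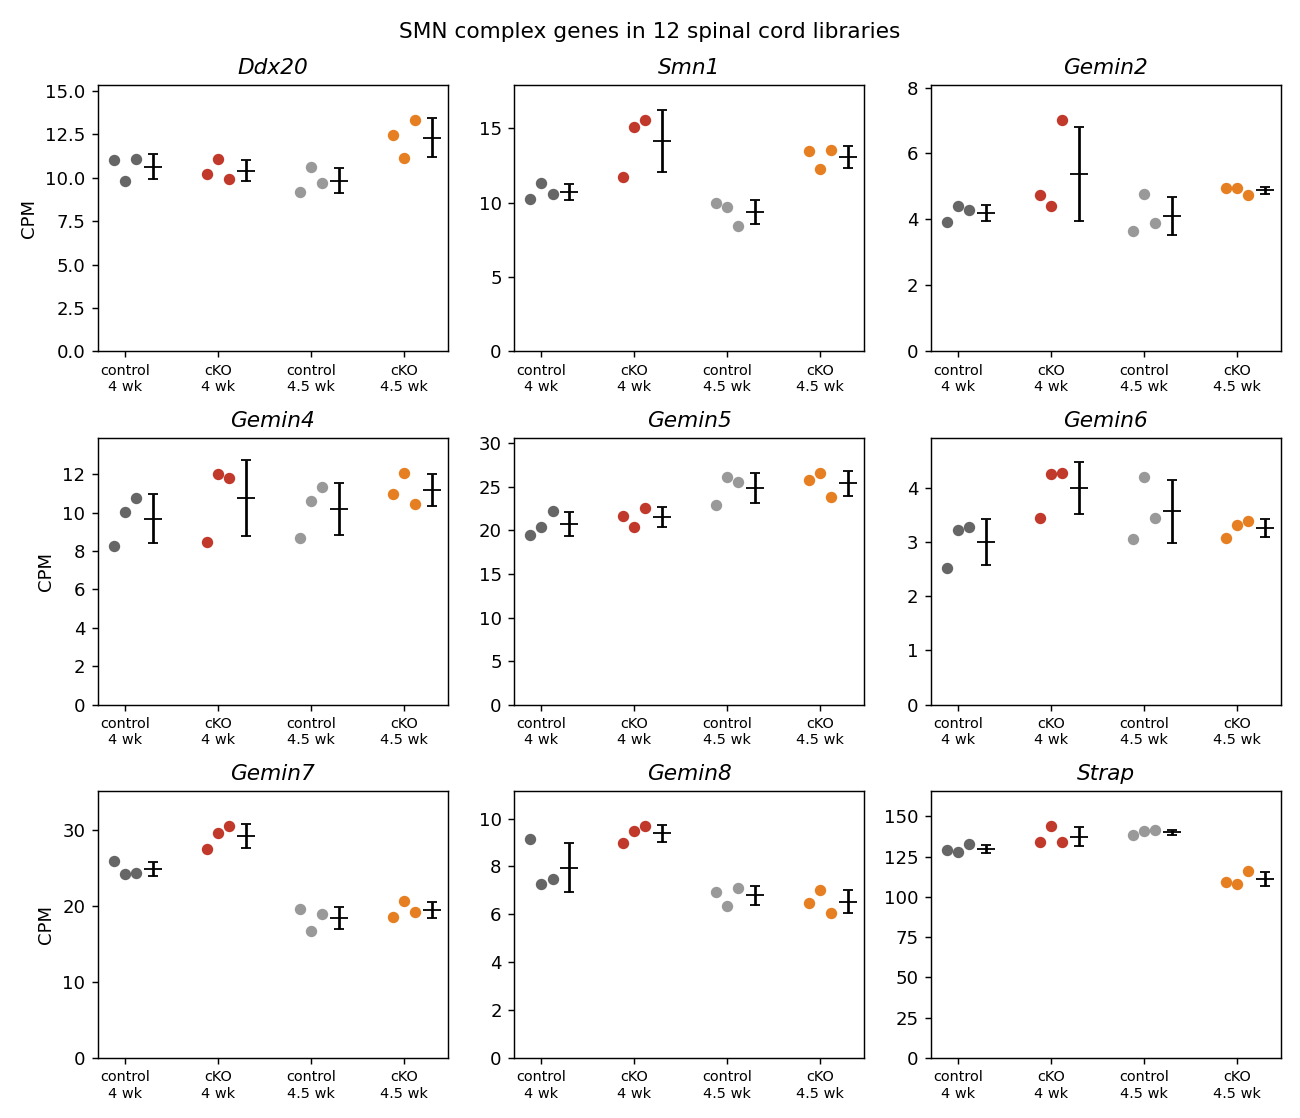
CPM of the 9 SMN complex genes in each of the 12 libraries; coloured points are single libraries and black bars the mean ± SD of 3, with each vertical axis starting at 0. Ddx20 overlapped between control and cKO at 4 weeks and was higher in cKO at 4.5 weeks, while Strap held 108 to 116 CPM in cKO at 4.5 weeks and 127.7 CPM or more in the other groups.

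At 4 weeks 2 of the 9 genes rose (Smn1 and Gemin7), 0 fell and 7 were not called, while 37.2% of all tested genes were called, 20.1% of them higher and 17.2% lower as shares of all tested. With edgeR 3 members were higher and 0 lower at an unadjusted p under 0.05, and both DESeq2 and limma-voom called 2 higher and 0 lower. The estimate lay above 0 in 8 of 9, with a median log2 fold change of 0.23 against 0.01 over all tested genes. The 3 libraries labelled cKO lay above all 3 controls in 5 genes (Smn1, Gemin2, Gemin6, Gemin7 and Strap) and below them in 0, beside 24.1% and 23.1% of all tested genes (47.2% in either direction). At 4.5 weeks 2 genes rose (Ddx20 and Smn1), 1 fell (Strap) and 6 were not called, while 65.9% of all tested genes were called, 33.3% higher and 32.6% lower. The median there was 0.08, against 0.02 over all tested genes, and the groups did not overlap in the same 3 genes, beside 72.3% of all tested genes (36.8% higher and 35.6% lower). A share of 2 in 9 is near the share of genes called higher at 4 weeks, and the share called at 4.5 weeks was below that of all genes.

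**Figure D2:**
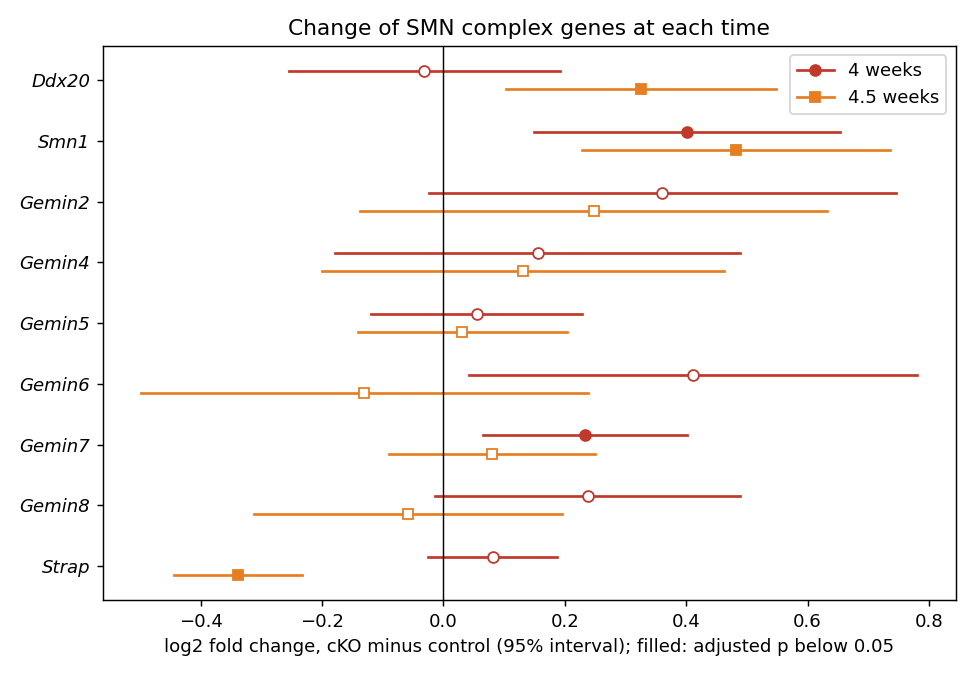
Log2 fold change (cKO minus control, horizontal axis) of each SMN complex gene at 4 weeks (circles) and 4.5 weeks (squares) with its 95% interval; filled symbols have an adjusted p below 0.05. Smn1 is the one gene filled at both times, and Strap at 4.5 weeks is the one filled symbol below 0.

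Smn1, the scaffold of the complex, was called higher at both times. At 4 weeks controls held 10.2, 11.3 and 10.6 CPM and libraries labelled cKO 11.8, 15.1 and 15.6 CPM, a change of 0.40 ± 0.12 on the log2 scale (95% interval 0.15 to 0.65, adjusted p = 0.0164). The lowest of libraries labelled cKO, library 1, stood just above the highest control. At 4.5 weeks controls held 9.97, 9.70 and 8.46 CPM and libraries labelled cKO 13.5, 12.2 and 13.5 CPM, clear of each other (0.48 ± 0.12, 95% interval 0.23 to 0.74, adjusted p = 0.00269). The call at 4 weeks ended without control library 1 (adjusted p = 0.0596), cKO library 2 (0.0658) or cKO library 3 (0.0748) of 4 weeks. It also ended once a trend with transcript length was removed (log2 fold change 0.25, adjusted p = 0.106) and in the test against a 1.5-fold change. Over all alternatives the adjusted p ranged from 0.00219 to 1, the upper end from that last test. At 4.5 weeks the call was lost only in the test against a 1.5-fold change (adjusted p = 0.936), with 0.00039 as the lowest among the alternatives. The male cKO library of 4 weeks, at 15.6 CPM, stood above the 3 male controls of that time.

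Gemin2, which binds SMN directly and holds the Sm proteins before the ring closes, was not called at either time. At 4 weeks it held 3.92, 4.40 and 4.27 CPM in controls and 4.73, 4.42 and 7.02 CPM in libraries labelled cKO (log2 fold change 0.36 ± 0.18, adjusted p = 0.132). The high value belonged to cKO library 3, the male one, and cKO library 2 differed from the highest control by less than the spread among the controls. With a sex term the estimate was 0.74 (adjusted p = 0.0135, range over the alternatives 0.0135 to 1), a fit in which the effect at 4 weeks rests on that 1 library. At 4.5 weeks controls held 3.67, 4.77 and 3.89 CPM and libraries labelled cKO 4.94, 4.95 and 4.74 CPM (0.25 ± 0.18, adjusted p = 0.236), and the groups overlapped.

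Gemin4 and Gemin5 were not called against control at either time. Gemin4, which binds the helicase directly, held 8.27, 10.03 and 10.74 CPM in controls and 8.49, 12.03 and 11.79 CPM in libraries labelled cKO at 4 weeks. At 4.5 weeks it held 8.69, 10.58 and 11.33 against 10.98, 12.07 and 10.47 CPM. The log2 fold changes were 0.16 ± 0.15 (95% interval -0.18 to 0.49) and 0.13 ± 0.15 (-0.20 to 0.46), with adjusted p = 0.466 and 0.47, and the groups overlapped at both times. Exons of Gemin4 share 3353 bases with the gene Glod4 on the same strand in GENCODE M21, and several Gemin4 estimates were not whole numbers, so that its level depends on how the reads were divided. Glod4 held 47.1 and 49.2 CPM on average in the controls of 4 and 4.5 weeks and 38.1 and 36.4 CPM in libraries labelled cKO. Gemin5, the subunit that reads the RNA, held 19.5 to 22.3 CPM in controls and 20.4 to 22.6 CPM in libraries labelled cKO at 4 weeks (log2 fold change 0.06 ± 0.08, 95% interval -0.12 to 0.23, adjusted p = 0.634). At 4.5 weeks it held 22.9 to 26.1 against 23.8 to 26.6 CPM (0.03 ± 0.08, -0.14 to 0.20, adjusted p = 0.746). This was the smallest estimate among the 9 genes at 4.5 weeks, where 96.8% of all tested genes changed by more.

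The small subunits Gemin6 and Gemin7, which pair through Sm-like folds, and Gemin8, which joins them to the rest of the complex, had estimates above 0 at 4 weeks. Gemin7 held 25.9, 24.2 and 24.4 CPM in controls and 27.5, 29.5 and 30.5 CPM in libraries labelled cKO, without overlap (log2 fold change 0.23 ± 0.08, adjusted p = 0.0318). That call was lost in 9 of 26 alternatives (adjusted p 0.0217 to 1 over all): without control library 2 (0.0886) or 3 (0.0849) or cKO library 2 (0.082) or 3 (0.115) of 4 weeks, with a sex term (0.0726, at an estimate of 0.30), with a replicate block (0.0901, at 0.23), without the filter on low counts (0.0744), against a 1.5-fold change (1), and with the length trend removed, where the estimate fell to 0.06 (adjusted p = 0.587). The fit with a sex term rests at 4 weeks on cKO library 3, the male one. Gemin6 held 2.52, 3.23 and 3.27 CPM in controls and 3.44, 4.26 and 4.28 CPM in libraries labelled cKO at 4 weeks. The groups did not overlap, and the change of 0.41 ± 0.17 was not called (95% interval 0.04 to 0.78, adjusted p = 0.0759). Without cKO library 1 of 4 weeks Gemin6 was called (adjusted p = 0.0483, range over the alternatives 0.0483 to 1).

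Gemin8 lies on the X chromosome, which matters beside the uneven sexes of the 4-week groups. It held 9.13, 7.26 and 7.47 CPM in the male controls and 8.97, 9.49 and 9.69 CPM in libraries labelled cKO, and the highest of these 6 values belonged to the male cKO library. The change of 0.24 ± 0.12 was not called (adjusted p = 0.129), and without control library 1 of 4 weeks it was (0.35, adjusted p = 0.0453, range over the alternatives 0.0453 to 1). At 4.5 weeks none of these 3 genes was called: Gemin6 changed by -0.13 ± 0.17, Gemin7 by 0.08 ± 0.08 and Gemin8 by -0.06 ± 0.12 on the log2 scale (adjusted p = 0.519, 0.388 and 0.681), and their groups overlapped.

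Strap, also called Unrip, a WD-repeat protein that joins the complex in the cytoplasm, had the only fall. At 4 weeks it held 129, 128 and 133 CPM in controls and 134, 144 and 134 CPM in libraries labelled cKO, a change of 0.08 ± 0.05 on the log2 scale that was not called (adjusted p = 0.217). At 4.5 weeks controls held 138.5, 141 and 142 CPM and libraries labelled cKO 109, 108 and 116 CPM, with a wide gap between the groups. Strap fell by 20.9% there (log2 fold change -0.34 ± 0.05, 95% interval -0.44 to -0.23, adjusted p = 4.55e-05). The difference between the times was called for Strap (-0.42 ± 0.07, 95% interval -0.57 to -0.27, adjusted p = 3.64e-04), 1 of the 9 genes lower and 0 higher (1 higher and 2 lower at an unadjusted p under 0.05, 0 and 1 with DESeq2 and with limma-voom), against 40.7% of all tested genes called, 18.7% higher and 21.9% lower. Both calls were lost only in the test against a 1.5-fold change (adjusted p = 1 each, with 8.66e-12 and 2.85e-08 as the lowest values). Summed neuronal markers (6 genes) lay at 3260 to 3517 CPM in controls and 947 to 1244 CPM in libraries labelled cKO at 4.5 weeks, and at 3038 to 3185 against 2682 to 2718 CPM at 4 weeks. Their part in the fall of Strap was not tested.

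Within each library the levels of the subunits spanned more than an order of magnitude once divided by transcript length (CPM per kb of the longest coding transcript in GENCODE M21). In the controls of 4 weeks Strap stood highest at 49.0 ± 0.95 CPM per kb (SD, n = 3), followed by Gemin7 at 24.2 ± 0.91 and Smn1 at 8.77 ± 0.45. Gemin8 (4.13 ± 0.53), Ddx20 (3.66 ± 0.25) and Gemin5 (3.34 ± 0.23) came next, and each overlapped its neighbour in this order. Gemin4 (2.73 ± 0.36), Gemin6 (2.65 ± 0.37) and Gemin2 (2.64 ± 0.16) overlapped one another at the low end. Ddx20, the helicase, thus sat in the middle of the complex by level. With all exons of a gene merged, Gemin7 held 19.4 ± 0.73 CPM per kb and Gemin8 3.61 ± 0.46, which puts Gemin8 just below Ddx20. In libraries labelled cKO at 4.5 weeks Ddx20 held 4.24 ± 0.38 CPM per kb, Smn1 10.7 ± 0.61 and Strap 41.9 ± 1.6.

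**Figure D3:**
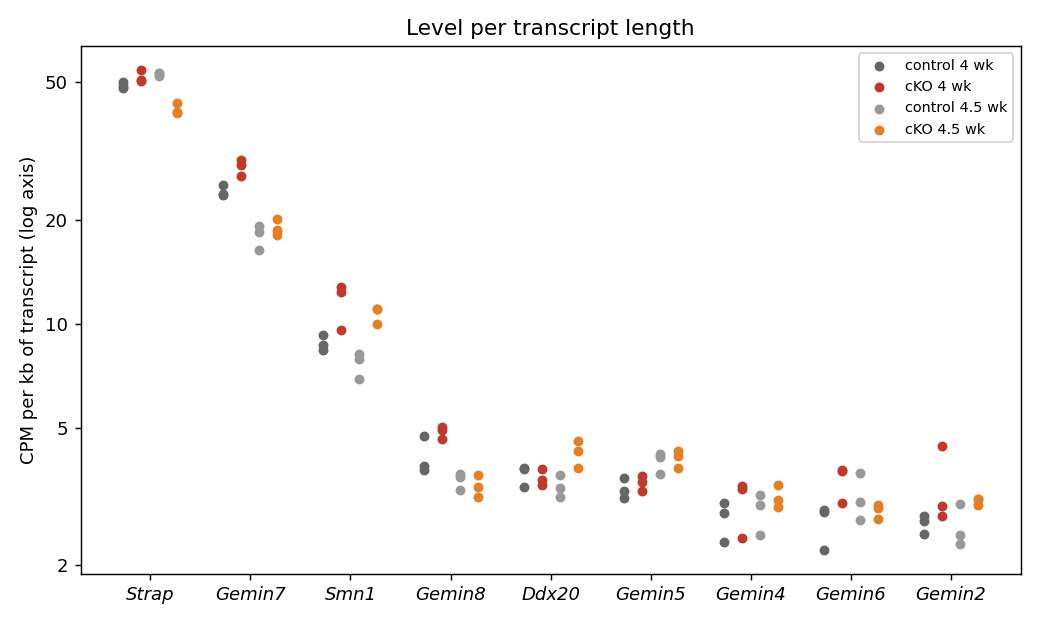
Level of each SMN complex gene in CPM per kb of transcript (log axis), each point 1 library, with genes in the order of their mean in the controls of 4 weeks. Strap, Gemin7 and Smn1 stand apart from the other 6 genes, whose libraries lie between 2.22 and 5.03 CPM per kb.

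Transcript length moved with the change at 4 weeks, over all genes as well as these. Tested genes of 1000 to 1300 bases had a median log2 fold change of 0.15 at 4 weeks (1060 genes, 26.8% called higher), and those of 4000 bases or more had -0.12 (5610 genes, 14.5% higher). Gemin7 (1023 bases), Gemin6 (1134 bases) and Smn1 (1222 bases) are the shortest of the 9 transcripts, and Ddx20 has 2905 bases, a length whose bin had a median of 0.03. With the length trend removed 0 of the 9 genes were called higher at 4 weeks. At 4.5 weeks the bins differed less, at 0.06 for genes of 1000 to 1300 bases and -0.08 for those of 4000 bases or more. Removing the trend there left the calls of Ddx20, Smn1 and Strap in place.

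**Figure D4:**
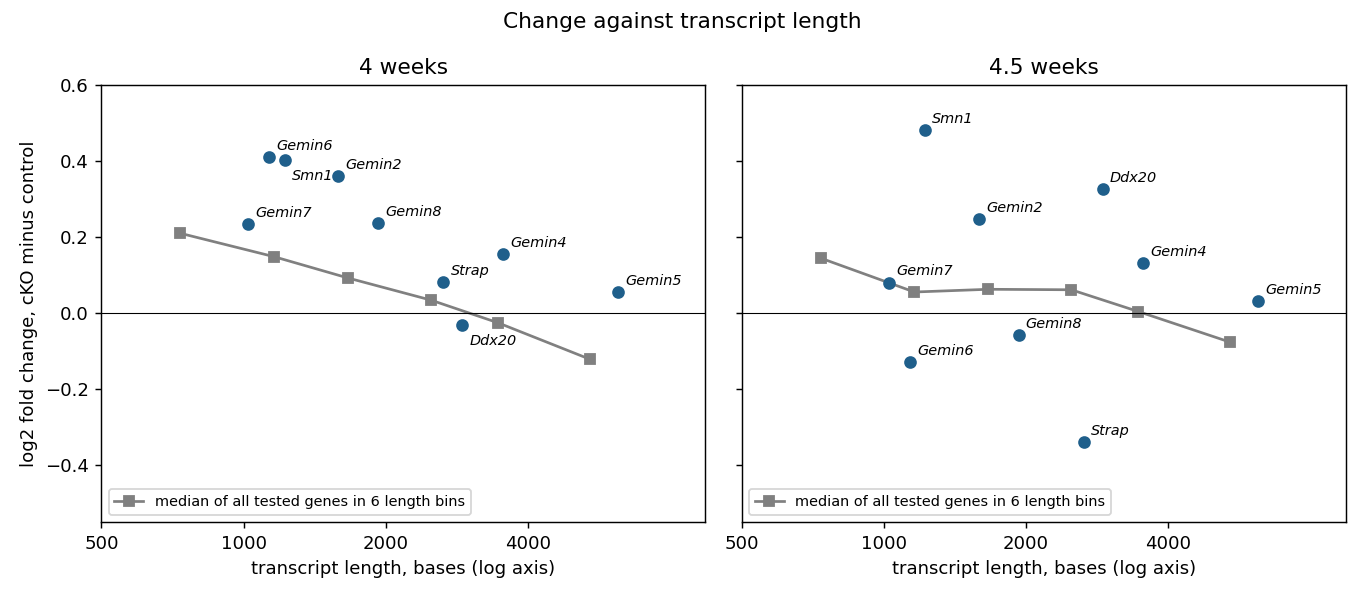
Log2 fold change (cKO minus control) of the 9 SMN complex genes (blue points) against transcript length (log axis), at 4 and 4.5 weeks; grey squares are medians of all tested genes in 6 length bins. At 4 weeks the medians fall from 0.21 in the shortest bin to -0.12 in the longest.

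The controls of the 2 times also differed, by time, sex and library set together, which cannot be told apart. Gemin7 was lower in the controls of 4.5 weeks, at 19.6, 16.7 and 18.8 CPM against 25.9, 24.2 and 24.4 CPM at 4 weeks (log2 difference -0.43 ± 0.08, adjusted p = 0.00407). The estimate was larger in size than that of Gemin7 between genotypes at either time, a contrast that was not tested. Gemin5 was higher, at 22.9, 26.1 and 25.5 against 19.5, 20.4 and 22.3 CPM (0.26 ± 0.08, adjusted p = 0.0422), a call lost in 14 of 24 alternatives (adjusted p 0.0195 to 1). These were 2 of the 9 genes, 1 in each direction, against 16.7% of all tested genes, 9.53% higher and 7.21% lower (1837 and 1390 genes, and 1524 and 1809 with upper quartile scaling). The control groups did not overlap in 2 genes that were higher and 3 that were lower at 4.5 weeks, beside 19.8% and 17.4% of all tested genes (37.2% in either direction). With the length trend removed both were lost (Gemin5 0.07, adjusted p = 0.617; Gemin7 -0.22, adjusted p = 0.11), and over all tested genes of 1000 to 1300 bases the median difference between the control groups was -0.21.

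The starts of the 4 genes that were called against control are shown because 3 of them rose and 1 fell. Each line gives the 100 bases just before the start of the gene from RefSeq on GRCm38.p6, which is not the build of the count tables, in the direction of transcription. The windows are chr3:105687572-105687671 (minus strand) for Ddx20, chr13:100124755-100124854 (plus) for Smn1, chr7:19573344-19573443 (minus) for Gemin7 and chr6:137734982-137735081 (plus) for Strap. Capitals mark the core of ETS factor sites (CGGAAG), GC boxes (GGGCGG) and the NRF1 motif, searched on both strands.
Ddx20: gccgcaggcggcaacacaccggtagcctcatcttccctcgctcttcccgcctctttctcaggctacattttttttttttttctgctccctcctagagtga
Smn1: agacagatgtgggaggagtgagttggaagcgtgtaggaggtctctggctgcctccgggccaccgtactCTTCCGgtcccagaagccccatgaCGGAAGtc
Gemin7: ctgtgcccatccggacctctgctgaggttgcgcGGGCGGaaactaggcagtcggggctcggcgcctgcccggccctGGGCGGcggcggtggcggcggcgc
Strap: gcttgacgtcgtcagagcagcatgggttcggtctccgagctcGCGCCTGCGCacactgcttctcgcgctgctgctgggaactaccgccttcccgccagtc

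The 4 stretches share no marked motif. All 9 genes matched a promoter, in 11 windows, and in the 250 bases before the start the GC box was in 7 of 11 windows (32.7% of all 32851 RefSeq windows), among them a Ddx20 match farther upstream than the stretch printed. The ETS core was in 3 (Smn1, Gemin4 and Gemin8, against 13.6% of all windows), the CCAAT box (CCAAT) in 2 (33.8%), and the NRF1 motif in that of Strap (4.98%). The cyclic AMP response element (TGACGTCA) was in that of Gemin6 (1.55%). A second Smn1 window lies upstream of the one shown, and the bases after its start were not found in a GENCODE M21 transcript of Smn1.

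Genes whose pattern over the 12 libraries was most like that of Ddx20 were found by the root mean square difference of log2 CPM after each gene was centred on its own mean. The nearest were Klhl23 (0.07), Ppp4r2 (0.07), Hnrnpa2b1 (0.08), Dgcr8 (0.08) and Fam3c (0.08), against a median of 0.43 over all tested genes. Ppp4r2 encodes a regulatory subunit of protein phosphatase 4, Hnrnpa2b1 an RNA-binding protein of splicing and RNA transport, and Dgcr8 the partner of Drosha in cutting primary microRNAs. Hnrnpa2b1, the most abundant of them, held 353, 333, 317 and 422 CPM on average, in the order control then cKO of 4 weeks and control then cKO of 4.5 weeks. Of the other subunits Gemin5 had the smallest difference from Ddx20 (0.19, rank 1779 of 19277 genes), and Gemin7 the largest (0.34, rank 7216). A small difference by this measure can also come from a gene that varies little. Gemin5 changed by 0.03 on the log2 scale at 4.5 weeks, where Ddx20 changed by 0.33.

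The Sm proteins are what the complex assembles into rings. Of 8 Sm core genes 6 rose and 0 fell at 4 weeks, beside 20.1% and 17.2% of all tested genes (0 lower also at an unadjusted p under 0.05, with DESeq2 and with limma-voom), with a median log2 fold change of 0.41, and at 4.5 weeks 5 rose and 2 fell, beside 33.3% and 32.6%, with a median of 0.27. Those 5 became 3 without control library 2, control library 3 or cKO library 3 of 4.5 weeks. Snrpg, of the Sm ring, held 9.99 ± 1.1 CPM (SD, n = 3) in controls and 16.9 ± 1.8 CPM in libraries labelled cKO at 4 weeks (0.76 ± 0.11, adjusted p = 2.06e-04) and 7.15 ± 0.64 against 14.0 ± 0.33 CPM at 4.5 weeks (0.97 ± 0.11, adjusted p = 6.08e-06). Snrpb, of the same ring, rose by 0.60 and 0.75 on the log2 scale. Snrpn, the related Sm gene that is abundant in neurons, fell at 4.5 weeks from 653 ± 29 to 287 ± 24 CPM (-1.18 ± 0.07, adjusted p = 8.98e-09), in the libraries in which the neuronal markers above were low, and Snrpd3 fell by 0.27. Reads of Snrpb and Snrpn, near copies in sequence, may be divided between them. With the length trend removed 4 of the 8 were called higher at 4 weeks and 3 at 4.5 weeks.

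Sm protein methylation prepares Sm proteins for the complex. The 6 genes listed for it are arginine methyltransferases and partners of Prmt5, and need not all act on Sm proteins. Of these 6 genes 5 fell and 1 rose at 4.5 weeks (median -0.41), beside 32.6% and 33.3% of all tested genes. At 4 weeks 1 fell and 0 rose, beside 17.2% and 20.1% (0 higher also at an unadjusted p under 0.05, with DESeq2 and with limma-voom). Coprs, a partner of the arginine methyltransferase Prmt5, fell from 26.7 ± 3.1 to 13.5 ± 1.5 CPM at 4.5 weeks (-0.98 ± 0.10, adjusted p = 1.82e-06). Prmt7, another arginine methyltransferase, fell by 0.68, and Riok1, a kinase that joins Prmt5, rose by 0.37. Wdr77, the constant partner of Prmt5, was the member called at 4 weeks (48.2 ± 2.0 to 41.5 ± 0.87 CPM, -0.22 ± 0.06, adjusted p = 0.0141). With a sex term 0 of the 6 genes fell at 4 weeks, in a fit whose effect at that time rests on cKO library 3, the male one.

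Of 7 genes that export small nuclear RNA and bring finished particles back to the nucleus, 0 were called at 4 weeks by edgeR (1 higher and 1 lower at an unadjusted p under 0.05, 0 and 1 with DESeq2, 0 and 0 with limma-voom), beside 37.2% of all tested genes. At 4.5 weeks 1 rose and 2 fell, so that 3 of 7 were called beside 65.9% of all tested genes, and without control library 2 of 4.5 weeks 1 fell. Tgs1, which adds the trimethyl cap, rose from 28.2 ± 0.82 to 40.2 ± 2.2 CPM (0.51 ± 0.07, adjusted p = 4.84e-05), while Snupn, the import adaptor that reads that cap, fell from 12 ± 1.4 to 8.57 ± 0.72 CPM (-0.49 ± 0.12, adjusted p = 0.00248), and Xpo1, the export receptor, fell by 0.16. Of 5 genes of the Cajal body, where the particles mature, 2 rose and 0 fell at 4 weeks, beside 20.1% and 17.2% (0 lower also with DESeq2 and limma-voom, and 1 lower at an unadjusted p under 0.05). Those 2 became 1 without control library 1, cKO library 2 or cKO library 3 of 4 weeks and 0 with a sex term, and 1 gene fell without control library 3. The fit with a sex term rests at 4 weeks on cKO library 3, the male one. At 4.5 weeks 1 rose and 2 fell, 3 of 5 beside 65.9%. Coil, the scaffold of that body, fell from 20.8 ± 0.58 to 12.6 ± 0.61 CPM at 4.5 weeks (-0.72 ± 0.07, adjusted p = 2.05e-06) and Wrap53, which recruits SMN to it, by 0.48. Fbl, the methyltransferase fibrillarin, rose at both times (0.44 and 0.63), and Nolc1, a nucleolar chaperone, at 4 weeks (0.18).

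Ddx20 belongs to a family of DEAD-box helicases, and its relatives gave a scale for its change. Of 35 other members 13 rose and 3 fell at 4 weeks (median 0.17), beside 20.1% and 17.2% of all tested genes, and 8 rose with a sex term. In that last fit the effect at 4 weeks rests on cKO library 3, the male one. At 4.5 weeks 17 rose and 6 fell (median 0.22), so that 23 of 35 were called, near the 65.9% of all tested genes. The change of Ddx20 at 4.5 weeks, 0.33, was therefore above the middle of its family and far below its largest rises. Ddx21, a nucleolar helicase of ribosome production, rose from 32.5 ± 0.70 to 67.9 ± 1.3 CPM at 4.5 weeks (1.06 ± 0.10, adjusted p = 1.25e-06). Ddx43, near the detection limit, rose from 0.0842 ± 0.10 to 0.673 ± 0.098 CPM (adjusted p = 0.00182). Ddx25, a helicase best known from testis, fell from 67.0 ± 4.4 to 30.8 ± 2.9 CPM (-1.12 ± 0.08, adjusted p = 4.58e-08), and Eif4a2, a translation initiation helicase, fell by 0.68. At 4 weeks Ddx39a, an mRNA export helicase listed as Ddx39, and Eif4a3, of the exon junction complex, rose most (0.74 and 0.65), and Ddx17 (-0.39) and Ddx25 (-0.32) fell most.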

How the data were processed

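Poly(A) RNA of 12 spinal cords went into libraries by a TruSeq v2 RNA kit, per the labels' protocols. The kit does not mark strand, so reads of genes that overlap on opposite strands cannot be assigned by strand. The authors deposited estimated counts, 1 table for each time and unscaled. The submitters' processing notes name STAR, RSEM and mm39, and versions, parameters and annotation release are not given in the sources used here. Columns were assigned by the time in the table's name and by genotype and number in the column name.

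Estimated counts were rounded and analysed with edgeR 4.0.16 in R 4.3.3. Low genes were left out with edgeR's filter, scaling used the trimmed mean of M values, and all 12 entered 1 quasi-likelihood model with a mean per group (8 residual degrees of freedom). There were 4 contrasts, each adjusted by Benjamini and Hochberg over 19278 genes, and a call needs an adjusted p below 0.05. CPM are scaled counts. In simulated data for the comparison at 4 weeks with 19278 genes, 14% of 50 changes of 1.25-fold, 60% of 1.5-fold and 94% of 2-fold were recovered. The simulation changed only 50 genes at each fold, while in the data 37.2% of tested genes were called at 4 weeks. The Benjamini-Hochberg cutoff is less strict where more genes change, so these shares do not give the power in the data. Transcript lengths (97.6% of tested genes) and overlaps came from GENCODE M21 (GRCm38). The named genes were all 9 subunits, the 2 largest called changes per direction, list and time, and the 5 patterns nearest to Ddx20. DESeq2 1.42.0 and limma 3.58.1 served as alternatives. Members, lists and alternatives were chosen with earlier results of these data known.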

Additional observations from a re-analysis of the deposited data

Results flagged for a closer look

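The change of Strap, the WD-repeat subunit, differed between the times by a test of the difference itself: -0.42 on the log2 scale (cKO effect at 4.5 weeks minus that at 4 weeks), with 134 to 144 CPM in cKO at 4 weeks and 108 to 116 CPM in cKO at 4.5 weeks. No other SMN complex gene had a called difference.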

How the results depend on the processing

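Results were recomputed under 26 alternatives, of which the removal of control libraries 1 and 2 of 4.5 weeks together was chosen after seeing the data, for their ganglion and muscle markers. At 4 weeks 2 SMN complex genes were called higher; the count was 1 without the filter on low counts and with the replicate block, and 0 against a 1.5-fold change and with the length trend removed. With single libraries left out it ranged from 0 to 3. At 4.5 weeks the 2 higher became 0 and the 1 lower became 0 against a 1.5-fold change, and the 2 higher became 1 without control libraries 1 and 2 together; with single libraries left out the higher count ranged from 1 to 2. The 1 difference between the times became 2 with a minimum of 1 CPM in 3 libraries and 0 against a 1.5-fold change, and ranged from 1 to 2 with single libraries left out. The 2 differences between control groups became 1 with upper quartile scaling or no filter, and 0 with the sex term, the length trend removed or a 1.5-fold change. With single libraries left out the count was 1 to 2. With the sex term the estimates were 0.37 for Gemin5 and -0.34 for Gemin7, against 0.26 and -0.43. In that fit sex and time of the controls cannot be told apart. Without both control libraries the estimates were 0.30 and -0.39, and neither of these differences was called. Control library 3 alone stood for the controls of 4.5 weeks in that fit.

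For Ddx20 the change at 4.5 weeks (0.33) was not called against a 1.5-fold change (0.33) or without both control libraries (0.33, adjusted p = 0.0989), and ranged from 0.26 to 0.39 with single libraries left out. Its change at 4 weeks ranged from -0.0882 to 0.00138 with single libraries left out, above 0 only without cKO library 3. Its difference between the times was called with a minimum of 1 CPM (0.36, adjusted p = 0.0493) and without cKO library 2 of 4.5 weeks, and ranged from 0.29 to 0.42 with single libraries left out.

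Changes of sign, none of them called on either side, were as follows. With the sex term the difference between the times was -0.0584 for Smn1, and the difference between control groups was 0.0202 for Smn1 and 0.59 for Gemin2. With the length trend removed Gemin7 changed by -0.0189 at 4.5 weeks and Gemin2 differed by 0.11 between control groups. Without both control libraries Gemin4 and Gemin5 changed by -0.0296 and -0.0178 at 4.5 weeks. With single libraries left out, the difference between the times ranged from -0.0261 to 0.151 for Smn1, -0.24 to 0.12 for Gemin2, -0.158 to 0.0764 for Gemin4 and -0.0832 to 0.0182 for Gemin5. In the same way the difference between control groups ranged from -0.149 to 0.0471 for Gemin2 and -0.0264 to 0.181 for Gemin4, and the change of Gemin5 at 4.5 weeks from -0.0299 to 0.0717. The cause of these changes was not tested. Deviations of same-numbered control and cKO libraries from their group means had correlations of -0.129 to 0.0496. Only library 3 of 4.5 weeks (0.0496) matched best with its own number. With 3 libraries per group these values cannot show whether the numbers mark a pairing. With the replicate block 3389 genes were higher and 2947 lower at 4 weeks, against 3866 and 3313 without it. Over all genes the control groups differed in 1837 higher and 1390 lower, against 406 and 409 with the length trend removed and 0 and 1 against a 1.5-fold change. With single libraries left out these counts were 791 to 2180 and 522 to 1888. With the sex term they were 0 and 0, but the controls of 4 weeks were all male and those of 4.5 weeks all female. The sex term rested on the cKO libraries of 4 weeks alone, so sex and time of the controls cannot be told apart in that fit. At 4 weeks the sex term gave 2634 higher and 1914 lower in cKO, where the effect rests on cKO library 3, the male one. A 1.5-fold change gave 1357 and 328 there. At 4.5 weeks a 1.5-fold change gave 3520 and 2839, against 6418 and 6283. For the difference between the times it gave 1219 and 1090, against 3613 and 4228. Gemin6 and Gemin2 had the fewest counts per library (102 to 169 and 143 to 261) and, at 4 weeks, the widest SE of the 9 genes (0.17 and 0.18).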

Other observations

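Ddx20 and Gemin4 are also known from complexes with Argonaute proteins, and 10 genes of the microRNA machinery were listed beside them. Of the 10 listed genes 4 fell and 0 rose at 4 weeks, beside 17.2% and 20.1% of all tested genes (0 higher also at an unadjusted p under 0.05, with DESeq2 and with limma-voom), where Ago3 went from 62.9 ± 1.9 to 45.5 ± 4.8 CPM (SD, n = 3; log2 fold change -0.47 ± 0.10, edgeR adjusted p = 0.00347) and Tnrc6b, a silencing partner of Argonaute, fell by 0.30. The 4 became 2 without control library 1, control library 3, cKO library 2 or cKO library 3 of 4 weeks, with a sex term and with the length trend removed, and 0 against a 1.5-fold change. The fit with a sex term rests at 4 weeks on cKO library 3, the male one. At 4.5 weeks 4 rose and 1 fell, 5 of 10 beside 65.9% of all tested genes; 2 rose without control library 1 or 3 of that time, and 2 fell without control library 1 or cKO library 1. Ago4 rose from 9.58 ± 0.55 to 20.8 ± 0.34 CPM (1.12 ± 0.08, adjusted p = 1.07e-07) and Dicer1, which cuts microRNA precursors, by 0.43, while Drosha, which cuts primary transcripts in the nucleus, fell from 108 ± 3.8 to 75.1 ± 2.3 CPM (-0.53 ± 0.05, adjusted p = 8.64e-07). The 2 times share no libraries, and 6 of the 10 genes were higher and 0 lower in the controls of 4.5 weeks than in those of 4 weeks, beside 9.53% and 7.21% of all tested genes (0 lower also at an unadjusted p under 0.05, with DESeq2 and with limma-voom). Among tested genes of 4000 bases or more, 26.8% were higher and 1.03% lower in that contrast, and the 2 control groups also differed in sex. The part of length and of sex in the 6 calls was not tested.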
